A study of Prunus persica with 18 samples.

Results

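Buds taken from the apical and from the basal part of the same peach shoots at 45 days after full bloom (DAFB) differed in 970 of the 19754 genes tested, and 690 of these were higher in apical buds and 280 in basal buds. Of the 690 apical genes, 487 were still called in the same direction at 58 DAFB and 36 at 79 DAFB. Of the 280 basal genes, 100 were still called at 58 DAFB and 16 at 79 DAFB. The 12 strongest apical genes lay 14.0 to 57.5-fold higher in apical buds, and the 12 strongest basal genes 7.79 to 20.6-fold higher in basal buds. At 79 DAFB, 0 of these 24 genes were called in their first direction by edgeR, and at an unadjusted p below 0.05 there were 1 apical and 5 basal genes in that direction, with 0 and 1 called by DESeq2. Over all genes tested, edgeR called 0.820% higher in apical and 0.385% higher in basal buds there, so nothing is read from the 0. At an unadjusted p below 0.05, 2650 of the 19754 were higher in apical and 2049 higher in basal buds. With the replicate block, which pairs the apical and basal buds of equal replicate number within a time point, PRUPE_3G229400 of the basal genes was called there (log2 difference -1.45, adjusted p = 0.00806). A gene was called by the quasi-likelihood test of edgeR with a Benjamini-Hochberg adjusted p below 0.01 and a difference of at least 2-fold.

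The comparison used 6 of the 18 libraries of the series, 3 of apical and 3 of basal buds, all collected at 45 DAFB (T1). The other 12 libraries were the same kinds of buds at 58 (T3) and 79 (T5) DAFB, again with 3 biological replicates of each position and time. All libraries came from untreated shoots of 1 flat-nectarine cultivar, *Prunus persica* cv. Platinet 1, and each replicate pooled the axillary buds of several shoots. The groups were T1 apical and T1 basal buds, followed into T3 apical, T3 basal, T5 apical and T5 basal buds, and no agent was given to any of them.

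A peach shoot grows from its tip and forms a bud in the axil of each new leaf, so that the buds near the base are older than those near the apex. In early summer these axillary buds hold vegetative meristems, and some of them later turn into flower buds. Because age and position go together along a shoot, their parts in a difference between apical and basal buds cannot be told apart here. A bud also holds scales, leaf primordia and vascular tissue around its meristem, and in whole buds a change in the share of a cell type cannot be told apart from a change in RNA per cell. Markers of bud tissues could not be checked, since the available RefSeq gene table shared 0 of the 26873 identifiers. A gene that the study does not name is therefore given by its identifier alone, without a role.

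Total counts at T1 ranged from 31529524 to 40542893 in apical and from 25942355 to 33092786 in basal buds, and the ranges of all 6 groups overlapped. Replicates at T1 correlated across genes with r between 0.9951 and 0.9954 in apical buds and at 0.9934 in basal buds, while r between the positions lay between 0.9709 and 0.9774. Among the later libraries, T3 apical replicate 1 stood apart, with r of 0.9637 and 0.9707 to its group against 0.9918 between the other T3 apical libraries. To a lesser degree so did T5 apical replicate 1, with 0.9848 and 0.9869 against 0.9913. The main counts at T3 and T5 are therefore also given without these libraries, with the T1 genes kept as they are. Of the genes in the table, 3937 had no count in any T1 library. Levels below are counts normalized by TMM and rescaled to the mean library size.

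At T1, genes higher in apical buds made up 3.49% and genes higher in basal buds 1.42% of all genes tested, so that 71.1% of the calls were apical. The difference reached 4-fold in 163 apical and 61 basal genes and 8-fold in 56 and 20. The median difference of the called genes was 1.41 on the log2 scale in apical and -1.42 in basal genes. The libraries of the positions were separate in 689 of the 690 apical and in all 280 basal genes (30.6% and 26.2% of all genes tested), which a call on the same libraries nearly fixes, and nothing is read from it. In 20 apical and 4 basal genes the lower group had at most 3 counts in each library, and the difference is then a lower bound. The highest of these bounds were at least 24.7-fold for PRUPE_6G144200 and at least 23.2-fold for PRUPE_2G150200 in apical buds and at least 7.86-fold for PRUPE_6G126800 in basal buds, picked out after their values were seen. At 0.05 without a limit on the fold, 4526 genes passed and 61% of them were higher in apical buds. Without basal T1 replicate 3 the count was 587.

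The strongest genes were ranked among the called genes with separate T1 libraries and a mean of 100 or more normalized counts in the higher position, which left 499 apical and 212 basal genes. In order of size, the 12 strongest of apical buds were PRUPE_6G015900, PRUPE_3G234900, PRUPE_7G063900, PRUPE_4G228900, PRUPE_1G111300, PRUPE_1G386800, PRUPE_8G177200, PRUPE_1G227100, PRUPE_4G245800, PRUPE_4G146100, PRUPE_2G073800 and PRUPE_3G111000. Their differences went from 5.85 down to 3.81 on the log2 scale, and the next gene in the ranking, PRUPE_3G074600, stood at 3.76. PRUPE_6G015900 had 328, 492 and 316 normalized counts in T1 apical buds and 2.43, 9.85 and 6.42 in T1 basal buds. Every apical library lay far above every basal one (log2 difference 5.85, SE 0.89, adjusted p = 0.000257, edgeR).

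PRUPE_3G234900 had 532, 654 and 291 normalized counts in T1 apical and 6.07, 13.8 and 6.42 in T1 basal buds, a log2 difference of 5.76 (SE 0.49, adjusted p = 4.81e-06). The apical libraries were spread over a wider range than in most of the other strongest genes, but did not come near the basal ones. PRUPE_7G063900 had 148, 45.9 and 136 in apical and 3.64, 4.92 and 0 in basal buds, with apical replicate 2 low, and its log2 difference was 5.20 (SE 0.73, adjusted p = 0.000139). PRUPE_4G228900 was even across apical buds, with 272, 265 and 251, and low in basal buds, with 3.64, 12.8 and 17.1. Its log2 difference was 4.50 (SE 0.57, adjusted p = 6.79e-05).

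The most abundant of the strongest apical genes was PRUPE_3G111000, with 4900, 6684 and 5754 normalized counts in apical and 432, 507 and 299 in basal buds. The lowest apical library was still far above the highest basal one, and the fitted difference was 14.0-fold (log2 3.81, SE 0.47, adjusted p = 5.27e-05). PRUPE_8G177200 reached 1501, 1661 and 1438 in apical and 53.4, 74.9 and 121 in basal buds. PRUPE_1G386800 was the least secure of the 12. It had 174, 144 and 237 in apical and 12.1, 1.97 and 12.8 in basal buds (log2 difference 4.39, SE 0.89, adjusted p = 0.00213), and its adjusted p rose to 0.0152 without basal T1 replicate 2 and to 0.0117 without basal T1 replicate 3.

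**Figure D1:**
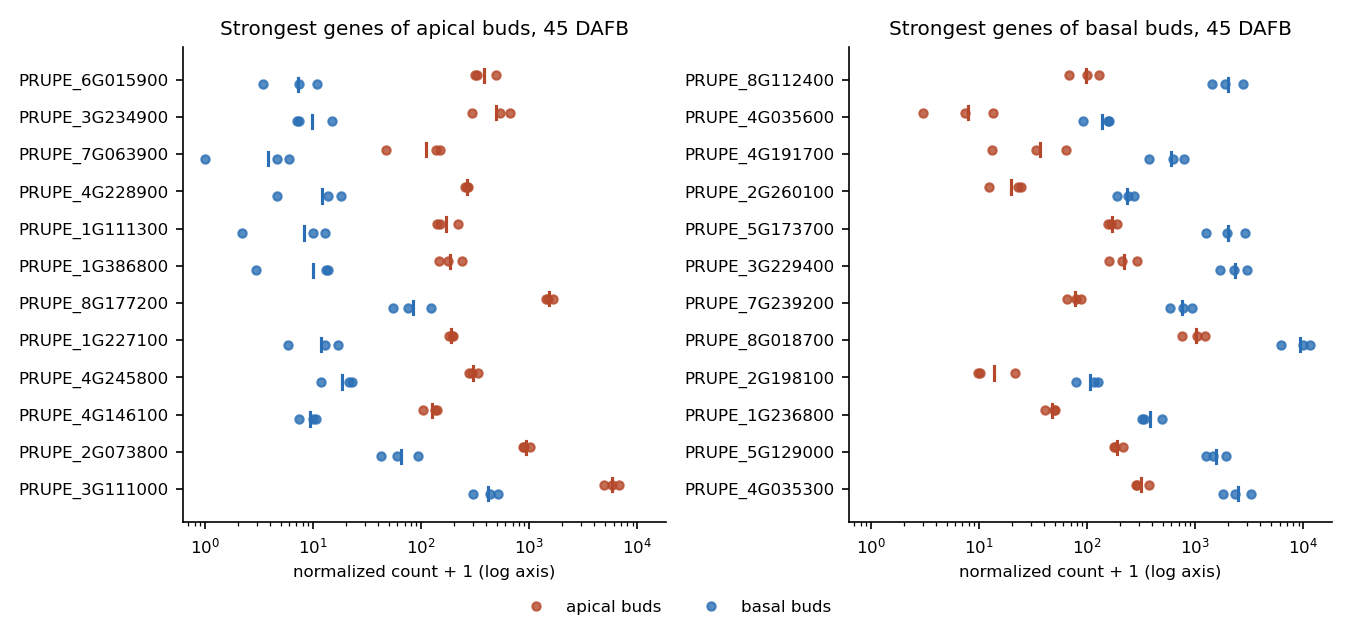
Normalized counts plus 1, on a log axis, of the 12 strongest genes of apical buds (left) and of basal buds (right) in the 3 apical and 3 basal libraries at 45 DAFB. Each point is 1 library and each vertical bar the mean of the 3. The absence of overlap between the positions was a condition of the choice of these 24 genes, and the plot shows the size of the gap and the spread within each group.

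The 12 strongest genes of basal buds were PRUPE_8G112400, PRUPE_4G035600, PRUPE_4G191700, PRUPE_2G260100, PRUPE_5G173700, PRUPE_3G229400, PRUPE_7G239200, PRUPE_8G018700, PRUPE_2G198100, PRUPE_1G236800, PRUPE_5G129000 and PRUPE_4G035300. Their log2 differences went from -4.37 to -2.96, and the next in rank, PRUPE_3G229900, stood at -2.95. PRUPE_8G112400 had 1433, 2756 and 1866 normalized counts in T1 basal and 97.4, 67.3 and 126 in T1 apical buds (log2 difference -4.37, SE 0.52, adjusted p = 3.85e-05). The basal libraries lay well above the apical ones, with basal replicate 2 the highest. Replicate 2 was the highest T1 basal library in 10 of the 12 genes, and replicate 1 the lowest in 11.

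PRUPE_4G035600 was a low gene, with 91.1, 158 and 156 normalized counts in basal and 12.3, 2.04 and 6.43 in apical buds (log2 difference -4.27, SE 0.49, adjusted p = 2.91e-05). PRUPE_4G191700 had 372, 788 and 625 in basal and 32.8, 12.2 and 61.9 in apical buds (log2 difference -4.02, SE 0.46, adjusted p = 2.86e-05). In both genes the lowest basal library was above all apical ones. PRUPE_8G018700 was the most abundant of the 12, with 6179, 11500 and 9891 in basal and 1035, 743 and 1232 in apical buds (log2 difference -3.19, SE 0.32, adjusted p = 9.72e-06). PRUPE_5G173700 had 1252, 2865 and 1946 in basal and 154, 165 and 188 in apical buds, so that the basal libraries differed among themselves far more than the apical ones.

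The called genes with the highest levels at T1 differed less between the positions than the strongest genes. PRUPE_1G475800 had 60300, 59330 and 60300 normalized counts in apical and 30040, 32150 and 24620 in basal buds (log2 difference 1.05, SE 0.19, adjusted p = 0.00103). This gene sat close to the 2-fold limit and was no longer called without basal T1 replicate 3, at a log2 difference of 0.91. PRUPE_3G248700 and PRUPE_3G201000 were 3.23-fold and 2.27-fold higher in apical buds. On the basal side, PRUPE_6G280800 had 25470, 48790 and 38240 in basal and 7556, 7434 and 7453 in apical buds, 5.01-fold, and PRUPE_1G121300 and PRUPE_1G505400 were 2.45-fold and 2.42-fold higher in basal buds.

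The T1 calls were then followed to the later times, whose libraries entered the choice only through the filter and the spread shared by the fit. At T3, 487 of the 690 apical genes (70.6%) were called in the same direction, where 5.76% of all genes tested were called higher in apical buds. Of the 280 basal genes, 100 (35.7%) were called in the same direction, against 3.40% of all genes tested. The reverse direction was called in 0 apical genes, with 0 at an unadjusted p below 0.05 and 0 by DESeq2, and in 1 basal gene, PRUPE_1G275300. Without T3 apical replicate 1, 458 (66.4%) of the same apical and 84 (30%) of the same basal genes were kept. With T1 also called anew, the 6 libraries of each time point fitted alone kept 43.9% of the apical and 15.5% of the basal genes, and without T1 basal replicate 3, where fewer genes were called at T1, 366 genes were kept, with shares of 80.7% and 32.9%.

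At T5, 36 of the apical genes (5.22%) were called in the same direction against 0.820% of all genes tested, and 16 of the basal genes (5.71%) against 0.385%. Apical T1 genes called in the reverse direction numbered 6 (0.87%, against 0.385% of all genes tested), and basal ones numbered 2 (0.714%, against 0.820%), which is no more than the share among all genes. The T5 counts moved with the fit. Of the same 690 and 280 genes, 16 and 14 were kept with the replicate block, 77 and 24 without T5 apical replicate 1, and 51 and 18 without T3 apical replicate 1. With T1 and T5 both called anew in each fit, the total of 52 became 13 with only the 6 libraries of each time point, 114 without T5 apical replicate 1 and 78 without T3 apical replicate 1. It fell to between 24 and 34 when any 1 of T1 apical replicates 1 and 2, T1 basal replicate 3, T5 apical replicates 2 and 3 and T5 basal replicates 2 and 3 was left out.

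**Figure D2:**
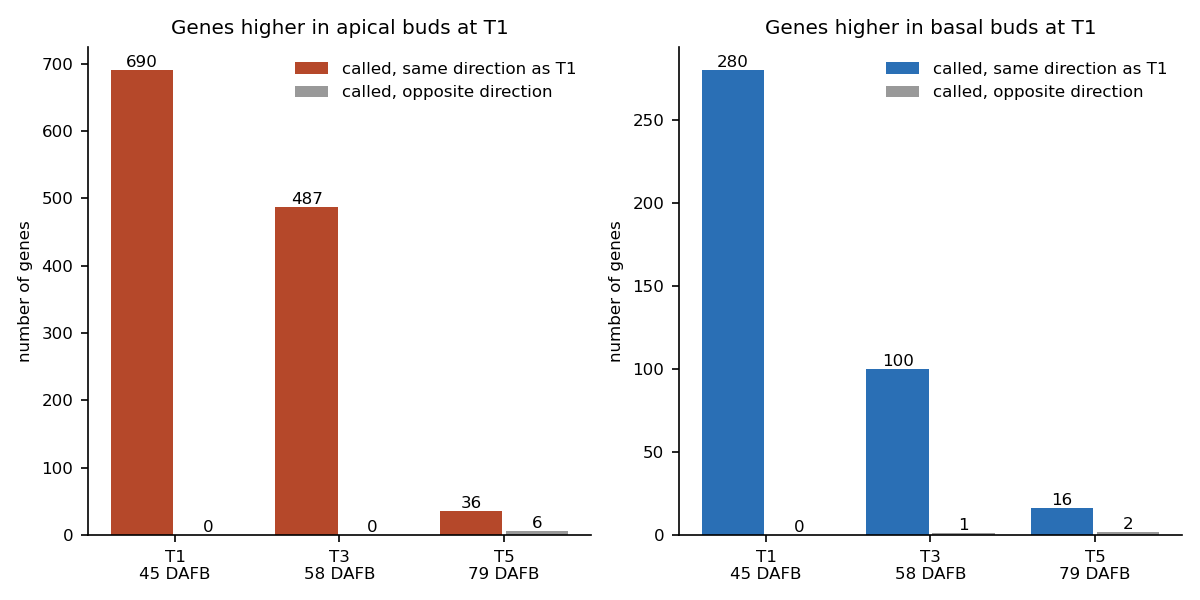
Number of genes called at 45 DAFB as higher in apical buds (left, 690) or in basal buds (right, 280) that were called again at 58 and 79 DAFB. Coloured bars count calls in the same direction as at T1 and grey bars calls in the opposite direction. At T3, 487 and 100 were called in the same direction, and at T5 36 and 16. Only T1 calls are followed, so a later bar cannot be higher than the T1 bar, and nothing is read from the drop itself. Over all genes tested, 970 were called at T1, 1808 at T3 and 238 at T5.

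The 100 strongest genes of each position were followed in the same way. Of the apical ones, at T3 96 were called in the same direction and their median difference was 3.09 on the log2 scale, against 2.41 at T1. Of the basal ones, 31 were called and their median difference was -0.72, against -1.75 at T1. Both lists were ranked by their T1 difference, which favours a larger value at T1, so a smaller later value is no sign of a change. Over all genes tested, 5.76% were called higher in apical and 3.40% higher in basal buds at T3. At T5, 7 of the apical and 9 of the basal 100 were called in the same direction, and 6 and 1 in the reverse direction. There, 0.820% of all genes tested were called higher in apical and 0.385% higher in basal buds. The 1 reversed basal gene is thus near the share among all genes. The median over all genes tested lay between 0.00749 and 0.0186 at the 3 time points. With the replicate block, 2 of the 100 apical and 8 of the 100 basal genes were called at T5, and without T5 apical replicate 1 there were 15 and 13, with 2 and 4 reversed. Without T3 apical replicate 1, 96 and 29 were called at T3.

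At T3, 5.76% of all genes tested were called higher in apical and 3.40% higher in basal buds. The share of T1 calls kept there also varied with the size of the T1 difference. Among apical genes it was 61.2% of the 387 genes with a log2 difference from 1 to 1.5, 75.7% of 140 from 1.5 to 2, 87.9% of 107 from 2 to 3, and 89.3% of the 56 at 3 and over. Among basal genes the shares in the same classes were 36.7% of 158, 42.6% of 61, 24.4% of 41 and 30% of 20. Without T3 apical replicate 1 they were 56.1%, 71.4%, 85% and 89.3% in apical and 31%, 34.4%, 24.4% and 20% in basal genes. At T5, 0 of these 56 apical and 0 of these 20 basal genes were called in the T1 direction by edgeR, with 3 and 7 at an unadjusted p below 0.05 and 0 and 1 by DESeq2. Over all 19754 genes tested, edgeR called 0.820% higher in apical and 0.385% higher in basal buds at T5. At an unadjusted p below 0.05 there were 2650 and 2049. The 3 apical genes are thus under and the 7 basal genes over the share among all genes.

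**Figure D3:**
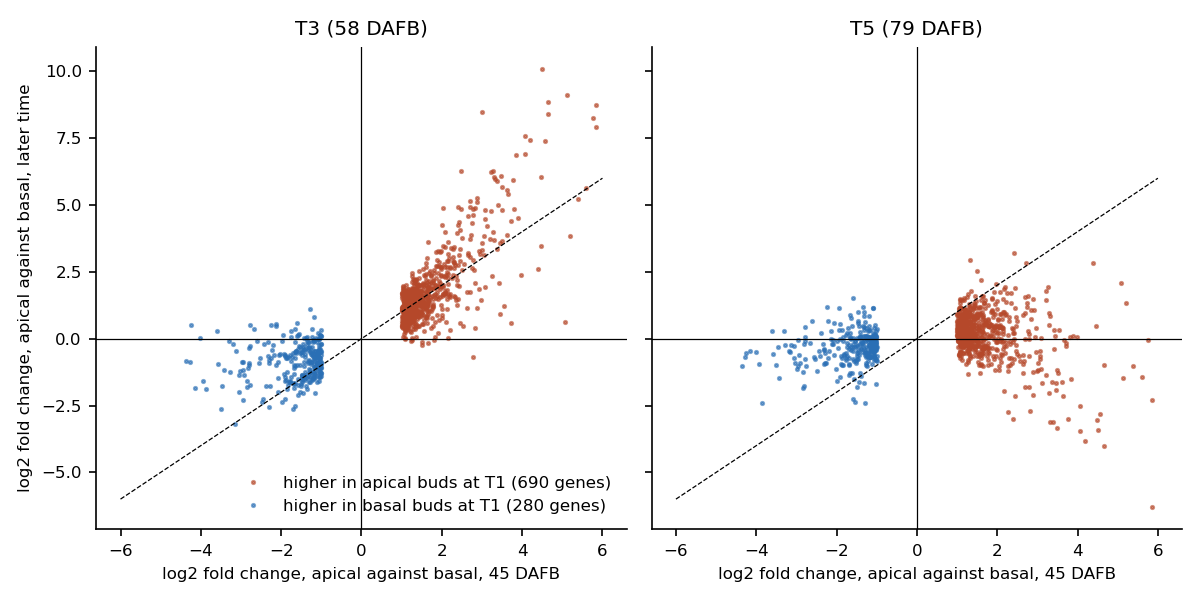
Log2 fold change of apical against basal buds at 58 DAFB (left) and 79 DAFB (right) against that at 45 DAFB for the 690 apical and 280 basal T1 calls, 1 point per gene, with the dashed line marking equal values. At T3 nearly all apical points lie above 0, while at T5 those with a T1 value of 3 and over spread from above 0 to -6.30. Fitted values of genes at or under 3 counts in a group are no bounds.

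Of the 12 strongest apical genes, 11 were called again at T3, all but PRUPE_1G386800 (log2 difference 2.60, adjusted p = 0.0327). PRUPE_6G015900 had 900, 92.8 and 759 normalized counts in T3 apical and 0, 3.80 and 0 in T3 basal buds (log2 difference 8.75, SE 1.08, adjusted p = 2.56e-05). Apical replicate 2 was well below the other T3 apical libraries, and it was the lowest in 9 of the 12 genes. The group of T3 basal libraries was at 3 counts or fewer in 3 of these genes, so that the T3 difference was at least 211-fold for PRUPE_3G234900, at least 164-fold for PRUPE_4G228900 and at least 95.6-fold for PRUPE_1G227100.

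At T5 the mean level of each of the 12 in apical buds was below that at T1, and PRUPE_3G111000 stayed the most abundant, with 472, 1894 and 1036 normalized counts. PRUPE_6G015900 was at 0.789, 0.954 and 0 normalized counts in T5 apical buds and at 122, 18.5 and 27.3 in T5 basal buds, at least 18.1-fold higher in basal buds (adjusted p = 0.0127, not called, but 0.00547 and called with the replicate block and 0.000168 and called by DESeq2). PRUPE_4G228900 had 3.94, 9.54 and 1.34 in apical and 86.6, 39.8 and 35.9 in basal buds (log2 difference -3.41, SE 0.71, adjusted p = 0.00716). PRUPE_8G177200 had 11.0, 13.4 and 9.39 in apical and 267, 68.2 and 140 in basal buds (log2 difference -3.83, SE 0.72, adjusted p = 0.00398). The order of the positions was thus the reverse of that at T1 in all 3 genes, with every basal library above every apical one. Neither of the last 2 was called without T5 apical replicate 1, and with the replicate block PRUPE_8G177200 was not (adjusted p = 0.0186).

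Such an order at T5, with every basal library above every apical one, was found in 6 of the 12 genes, the others being PRUPE_1G227100, PRUPE_4G245800 and PRUPE_2G073800, and in 14.7% of all genes tested. The opposite order, which 14.3% of all genes tested showed, was found in 0 of the 12. T5 basal replicate 1 was the highest T5 basal library in 9 of the 12. PRUPE_3G234900 fell to 0, 6.68 and 5.37 in apical buds and was at 5.14, 4.26 and 1.24 in basal buds, where the libraries overlapped. PRUPE_1G386800 overlapped as well, with 11.8, 6.68 and 138 in apical buds, where replicate 3 stood alone, and 5.87, 9.94 and 4.96 in basal buds. The mean log2 level of the 12 genes in apical buds at T1, T3 and T5 was 8.55, 8.40 and 3.21. In basal buds it was 4.03, 2.58 and 4.56. The T1 levels are part of what chose these genes.

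**Figure D4:**
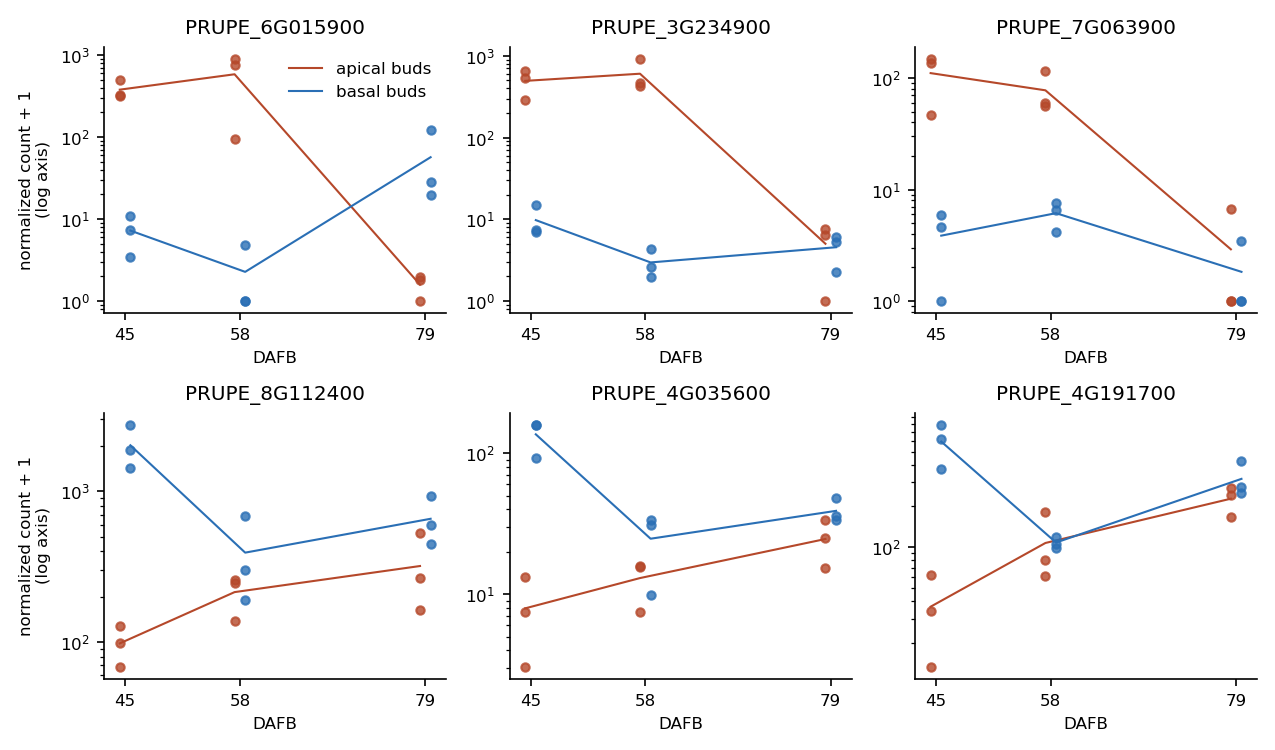
Normalized counts plus 1, on a log axis, of the 3 strongest apical genes (top) and the 3 strongest basal genes (bottom) at 45, 58 and 79 DAFB, with 1 point per library and lines through the means of 3 libraries. In the top row the apical line is far above the basal one at T1 and T3 and meets or crosses it at T5. In the bottom row the basal line drops from T1 to T3 while the apical line goes up. The genes were chosen by their T1 gap, which favours a smaller gap later.

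Among the 12 strongest basal genes, 3 were called again at T3, PRUPE_2G198100, PRUPE_1G236800 and PRUPE_5G129000. PRUPE_2G198100 had 229, 369 and 282 normalized counts in T3 basal and 58.4, 104 and 66.4 in T3 apical buds (log2 difference -1.98, SE 0.37, adjusted p = 0.000627). The positions did not overlap, and both were above their T1 levels of 105 and 12.8. PRUPE_1G236800 and PRUPE_5G129000 differed by -1.36 and -1.20 on the log2 scale (adjusted p = 0.00058 and 0.00218), and PRUPE_5G129000 was not called with the replicate block (adjusted p = 0.0117). Without T3 apical replicate 1, 2 of the 12 were called at T3.

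The other 9 did not pass, but PRUPE_3G229400 (log2 difference -1.19) was called with the replicate block (adjusted p = 0.00512) and by DESeq2 (adjusted p = 0.00466). PRUPE_5G173700 (log2 difference -0.96, adjusted p = 0.00952) missed only the 2-fold limit, and PRUPE_4G035300 differed by -0.89 (adjusted p = 0.0149). In both, every T3 basal library lay above every apical one, an order found in 5 of the 12 genes and in 26.8% of all genes tested. PRUPE_4G191700 had 118, 105 and 98.4 in T3 basal and 180, 60.3 and 79.5 in T3 apical buds (log2 difference 0.03, SE 0.43, adjusted p = 0.955), so that the libraries of the positions were mixed. PRUPE_8G112400 had 685, 298 and 189 in basal and 257, 137 and 247 in apical buds, also overlapping (log2 difference -0.84, SE 0.47, adjusted p = 0.152). PRUPE_8G018700 had 2075, 1367 and 1306 in basal and 1459, 1143 and 1490 in apical buds (log2 difference -0.21, SE 0.30, adjusted p = 0.577). Over the 12 genes, the mean log2 level in basal buds at T1, T3 and T5 was 9.73, 7.96 and 8.78, and in apical buds 6.24, 7.19 and 8.20. Here too the T1 levels are part of what chose the genes. At T5, every basal library lay above every apical one in 4 of the 12 genes and in 14.7% of all genes tested. The opposite order was found in 0 of the 12 and in 14.3% of all genes tested.

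Whether the difference between the positions itself differed between time points was tested over all genes as an interaction in the same fit. For genes chosen by their T1 difference this is no independent test, because that difference is part of what is compared. Between T1 and T3 it was called in 13 genes, 12 with a lower apical-minus-basal value at T1 (0.0607% of genes tested) and 1 with a higher one (0.00506%). The 12 included 11 of the 280 basal T1 calls, a share that their choice favours. Of the 690 apical T1 calls, 0 were called by edgeR, with 57 higher and 82 lower at T1 at an unadjusted p below 0.05 and 3 and 11 called by DESeq2. Over all 19754 genes tested, 1572 were higher and 2003 lower at an unadjusted p below 0.05, and DESeq2 called 36 and 103. The 57 and 82 apical genes are thus near the share among all genes, and nothing is read from them. The replicate block left 1 gene in all. The count also ranged from 2 to 36 as single libraries were left out. It fell to 2 or 3 without any 1 of T1 apical replicates 1, 2 and 3, T1 basal replicates 2 and 3, T3 apical replicate 3 and T3 basal replicates 2 and 3, and rose to 23 and 36 without T3 apical replicates 1 and 2.

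Between T1 and T5 the interaction was called in 226 genes with a higher (1.14%) and 144 with a lower (0.729%) value at T1, and in 239 genes in all with the replicate block. The total of 370 rose to 643 without T3 apical replicate 1 and fell to between 194 and 241 without any 1 of the T1 apical replicates, T1 basal replicate 3 or T5 basal replicate 1. The apical T1 calls held 143 of the 226 and the basal T1 calls 84 of the 144, which the choice of these genes by their T1 difference again favours.

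The later movement of the T1 calls was read from the T3 and T5 libraries within each position. In apical buds, 477 of the 690 apical T1 genes fell from T3 to T5 and 18 rose, where 12.6% of all genes tested fell and 10.0% rose. In basal buds, 185 of them fell and 110 rose, where 8.78% and 8.34% of all genes tested did so. Of the 280 basal T1 genes, 103 rose and 15 fell in apical buds, and 57 rose and 27 fell in basal buds. Of the 100 strongest apical genes, 86 fell in apical buds and 2 rose, while 24 fell and 27 rose in basal buds. Without T3 apical replicate 1, 455 of the 690 apical genes fell and 92 of the 280 basal genes rose in apical buds, and without T5 apical replicate 1 the counts were 451 and 101.

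Among the 12 strongest apical genes, 11 fell in apical buds between T3 and T5, and 7 rose in basal buds. PRUPE_8G177200 in apical buds fell by 7.52 on the log2 scale (SE 0.70, adjusted p = 1.51e-07), and in basal buds it rose by 3.73 (SE 0.71, adjusted p = 0.000338). PRUPE_3G111000 fell by 2.72 in apical buds (SE 0.44, adjusted p = 6.17e-05) and rose by 2.05 in basal buds (SE 0.45, adjusted p = 0.00114). Among the 12 strongest basal genes, 5 rose in apical buds and 4 in basal buds. PRUPE_7G239200 rose in both, by 2.71 in apical (SE 0.49, adjusted p = 0.000165) and 2.33 in basal buds (SE 0.48, adjusted p = 0.000705).

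The 6 apical T1 genes called in the reverse direction at T5 were PRUPE_1G007400, PRUPE_1G245500, PRUPE_4G228900, PRUPE_4G252100, PRUPE_8G128900 and PRUPE_8G177200. PRUPE_1G007400 had 3533, 4780 and 3514 normalized counts in T1 apical and 233, 419 and 392 in T1 basal buds, but 57.6, 66.8 and 75.1 in T5 apical and 1237, 250 and 480 in T5 basal buds. Its log2 difference went from 3.50 at T1 to -3.34 at T5 (SE 0.59, adjusted p = 0.00255). All 6 were also among the genes kept at T3. With the replicate block, PRUPE_4G228900 alone of the 6 was called at T5 (adjusted p = 0.00714). Of the 18 fits that left out 1 library, its T5 call held in 5. The T5 call held in 3 for PRUPE_1G245500, in 9 for PRUPE_4G252100 and in 13 for PRUPE_8G177200. It held in 15 for PRUPE_1G007400 and in 15 for PRUPE_8G128900.

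The 2 basal T1 genes called higher in apical buds at T5 were PRUPE_1G393100 and PRUPE_8G093100. PRUPE_1G393100 had 78.9, 231 and 240 in T1 basal and 55.4, 69.4 and 58.7 in T1 apical buds, then 920, 993 and 512 in T5 basal and 2128, 2751 and 2055 in T5 apical buds. It thus rose in both positions, and by T5 all apical libraries were above all basal ones (log2 difference 1.52, SE 0.33, adjusted p = 0.00849). With the replicate block neither was called at T5, and PRUPE_1G393100 was not called at T1 either (adjusted p = 0.013). Its T1 call held in 13 of the 18 fits that left out 1 library and its T5 call in 6. PRUPE_1G275300, the basal T1 gene reversed at T3, had 490, 355 and 643 in T3 apical and 161, 187 and 337 in T3 basal buds (log2 difference 1.12, SE 0.29, adjusted p = 0.00601) and 1776 to 2641 and 1665 to 2417 at T5, where the positions overlapped.

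The difference held at all 3 time points in 31 genes, 27 higher in apical and 4 higher in basal buds. Of the same T1 calls there were 36 and 6 without T3 apical replicate 1, 61 and 12 without T5 apical replicate 1 and 11 and 6 with the replicate block. The 4 basal genes were PRUPE_1G244900, PRUPE_6G307400, PRUPE_7G037000 and PRUPE_8G047500, named here after their values were seen. PRUPE_1G244900 differed by -2.85, -1.58 and -1.86 on the log2 scale at T1, T3 and T5, and PRUPE_8G047500 by -1.98, -2.37 and -1.58. On the apical side PRUPE_7G190700, also picked out after its values were seen, differed by 2.42, 3.14 and 3.22, while its mean level fell from 1979 to 55.7 normalized counts in apical and from 370 to 5.27 in basal buds between T1 and T5. A difference kept in ratio thus went with a level that dropped in both positions.

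PRUPE_3G248700, one of the most abundant T1 calls, was also among the 27. It had 44840, 42810 and 39280 normalized counts in T1 apical and 14010, 13560 and 11740 in T1 basal buds, and the log2 difference was 1.69 at T1, 1.43 at T3 and 1.14 at T5 (SE 0.24 at each, adjusted p = 0.000148, 0.000274 and 0.00672). At T5 it had 10200, 12650 and 15950 in apical and 8122, 5924 and 3497 in basal buds, still without overlap, but it was not called at T5 with the replicate block (adjusted p = 0.03). Of the genes called at a single later time, 460 apical and 96 basal genes were kept at T3 only and 9 and 12 at T5 only, and 194 and 168 were kept at neither.

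The genes that the study names were not chosen by their T1 difference, but the study picked part of them from the same libraries, so they are no independent list. Of 15 such genes, 1 was called at T1, 4 at T3 and 0 at T5 by edgeR, all of them higher in apical buds, where 3.49%, 5.76% and 0.820% of all genes tested were called in that direction. At T5, DESeq2 called PpCEN higher in apical buds (log2 difference 1.21 in edgeR, adjusted p = 0.00039 in DESeq2). PpSPL9.2 (PRUPE_7G074200), a SQUAMOSA promoter-binding-like transcription factor of a family that promotes the change to adult and flowering phases in Arabidopsis, was the T1 call. It had 1647, 1723 and 1581 normalized counts in apical and 711, 706 and 797 in basal buds (log2 difference 1.16, SE 0.14, adjusted p = 4.03e-05). At T3 its difference was 0.98 and at T5 0.70 (adjusted p = 7.71e-05 and 0.00741), just under 2-fold and below. Its apical libraries lay above the basal ones at both times, as in 26.8% and 14.3% of all genes tested.

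Its paralogue PpSPL9.1 (PRUPE_6G256300) was more abundant and nearer to even, with 3774, 3870 and 3706 in apical and 3043, 2679 and 3167 in basal buds at T1 (log2 difference 0.35, SE 0.11, adjusted p = 0.0247). The B1-type cyclins, which drive entry into mitosis, were also higher in every T1 apical library. At T1, 30.6% of all genes tested showed this order. PpCYCB1.2 (PRUPE_6G021200) had 634, 717 and 614 in apical and 391, 338 and 306 in basal buds (log2 difference 0.93, SE 0.18, adjusted p = 0.00143, under 2-fold). PpCYCB1.4 (PRUPE_4G269600) had 432, 440 and 386 against 275, 275 and 199 (log2 difference 0.75, SE 0.22, adjusted p = 0.0197). Both were called at T3, with 1.43 and 1.52, and at T5 their differences were 0.04 and 0.17 with overlapping libraries.

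The flowering-time genes did not pass the test at T1. PpTFL1 (PRUPE_7G112600), a repressor of flowering, had 502, 387 and 437 in apical and 336, 390 and 326 in basal buds (log2 difference 0.33, SE 0.18, adjusted p = 0.207). PpFT (PRUPE_6G364900), the mobile flowering signal, had 99.5, 115 and 125 in apical and 164, 106 and 102 in basal buds (log2 difference -0.12, SE 0.22, adjusted p = 0.741). PpCEN (PRUPE_6G128400), of the same family as both, had 227, 181 and 144 in apical and 231, 237 and 256 in basal buds. All its basal libraries were above the apical ones without passing the test (log2 difference -0.40, SE 0.24, adjusted p = 0.262). Of all genes tested, 26.2% showed that order at T1.

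PpAP1 (PRUPE_1G290600), which gives floral identity to a meristem, was near the lower end of what was measured. It had 9.23, 17.3 and 11.3 normalized counts in apical and 17, 13.8 and 17.1 in basal buds at T1 (log2 difference -0.34, SE 0.42, adjusted p = 0.611), with overlapping libraries. At T5 it had 29.2, 34.3 and 28.2 in apical and 8.07, 24.2 and 8.67 in basal buds (log2 difference 1.26, SE 0.39, adjusted p = 0.0551).

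Of the gibberellin genes, PpGA2ox6 (PRUPE_4G150200), an enzyme that inactivates gibberellins, differed by -0.19 at T1 (SE 0.13, adjusted p = 0.341). PpRSI-1 (PRUPE_3G161500), of a gibberellin-regulated family, differed by 0.35 at T1 (SE 0.17, adjusted p = 0.156) and was called at T3 with 1.01 (SE 0.17, adjusted p = 0.000375). That value sat at the 2-fold limit, and the T3 call held in 16 of the 18 fits that left out 1 library. At T5 its difference was 0.76 (adjusted p = 0.01155), with every apical library above every basal one, as in 14.3% of all genes tested. PpTPS9 (PRUPE_5G176400) and PpTPS10 (PRUPE_1G256200), which the study names trehalose phosphate synthases, were higher in all T1 basal libraries without passing the test. Their differences were -0.33 (SE 0.14, adjusted p = 0.0927) and -0.50 (SE 0.20, adjusted p = 0.0864). The same order was seen in 26.2% of all genes tested at T1.

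The thioredoxin gene PRUPE_1G410500, of a family of small redox proteins, had 1188, 1220 and 1246 in apical and 817, 991 and 934 in basal buds at T1 (log2 difference 0.41, SE 0.11, adjusted p = 0.0131). At T3 it had 1056, 1437 and 1280 in apical and 461, 408 and 418 in basal buds, a difference of 1.55 (SE 0.12, adjusted p = 7.04e-07), and the interaction between T1 and T3 was called (-1.14, adjusted p = 0.00504) but not with the replicate block (adjusted p = 0.0463). The genes used as references for quantitative PCR, TEF2 (PRUPE_4G138900) and UBQ10 (PRUPE_4G204900), differed by 0.11 (SE 0.15, adjusted p = 0.633) and -0.20 (SE 0.12, adjusted p = 0.266) at T1.

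**Figure D5:**
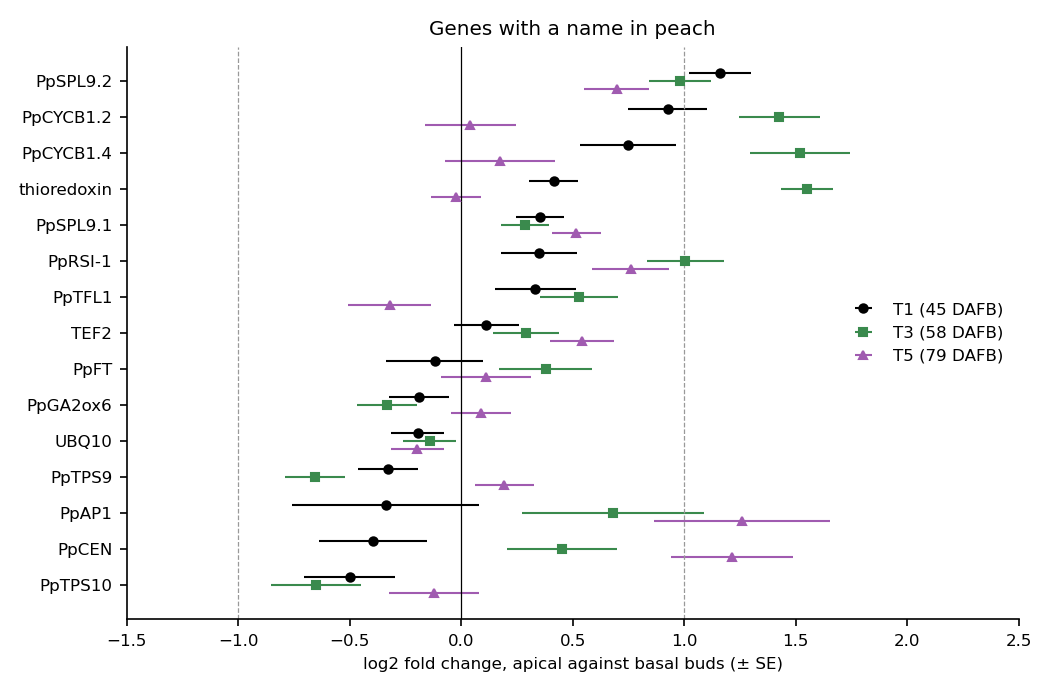
Log2 fold change of apical against basal buds (± SE from the edgeR fit, 3 libraries per group) at 45, 58 and 79 DAFB for the 15 genes with a name in peach, ordered by the T1 value. Dashed lines mark 2-fold, and PpSPL9.2 at 1.16 is the highest of the T1 values.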

How the data were processed

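Axillary buds were profiled by RNA-Seq on an Illumina platform. The authors aligned the reads with HISAT2 and counted them per gene with HTSeq, after FastQC, and deposited raw counts of 26873 genes in 18 libraries. The counting mode and the strand setting are not given in the sources used here, so how reads shared by overlapping or near-identical genes were assigned is unknown. Of the sample columns, 0 were left unused.

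Counts were normalized by TMM and tested in R 4.3.3 by edgeR 4.0.16 (quasi-likelihood test), with 1 mean for each of the 6 groups. The filter of the package kept 19754 genes, and adjusted p-values (Benjamini-Hochberg) are over all of these. The study states the limits of an FDR of 0.01 and 2-fold but no contrast between positions. The contrasts were apical against basal buds at T1, T3 and T5, the difference between T1 and each later time, and T5 against T3 within each position. The SE was derived from the log2 fold change and its F statistic. Where no library of a group exceeded 3 counts, the fold is a lower bound computed at 3 counts per library.

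The named genes are the 12 strongest of each position among called genes without overlap and with at least 100 normalized counts in the higher group, the 3 called genes with the highest T1 level in each direction, and the 15 genes that the study names. Genes reversed later and the genes called at all times were added after their values were seen. The members and lists were chosen with earlier results of these data known.

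Library totals ranged from 21114469 to 47286272 counts, and 3 replicates a group limit the precision. An exact two-sided permutation test of 3 against 3 cannot go below p = 0.1. Replicates are described as biological, and each pools several shoots.

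Both positions of a replicate were taken from 1 set of shoots, so equal numbers form pairs, provided that the labels follow the shoots. Deviations from the group means correlated between equal numbers with r of 0.107, 0.081 and 0.0325 at T1, -0.0341, 0.0757 and -0.074 at T3 and 0.195, 0.0203 and -0.0678 at T5. A chi-square comparison of T1 replicates gave between 4.18 and 9.92 per gene, so that no pair differed by as little as sampling noise.

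The alternatives were DESeq2 1.42.0, other scalings and filters, other thresholds, the 6 libraries of a time point alone, the replicate block and each library left out in turn. Alternatives for the tests between time points, the T1 libraries left out for the genes kept, and the counts of the same T1 genes in fits without 1 library or with the block were in part chosen after seeing the data. On simulated counts of 19590 genes, 200 of them given a T1 difference of 2 (log2), edgeR called 99% with 1 false call and DESeq2 100% with 3. The 200 genes were drawn from those above a limit on the mean count, and no library was made to stand apart. These rates check the code and do not carry over to smaller differences, low counts or outlying libraries. Figures were drawn with matplotlib 3.10.9.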

Additional observations from a re-analysis of the deposited data

Results flagged for a closer look

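Among the named genes, the difference between apical and basal buds differed between T1 and T3 in 4 genes and between T1 and T5 in 19, by the interaction test of edgeR at the limits used throughout. All but PRUPE_1G410500 were named for their T1 difference, which is part of what is compared, so their values are a description and no independent sign of a change over time. All values here are the log2 difference at T1 minus that at the later time.

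From T1 to T3 the value was -4.05 for PRUPE_4G191700, -2.62 for PRUPE_5G173700 and -2.98 for PRUPE_8G018700, all higher in basal buds at T1, and -1.14 for the thioredoxin gene PRUPE_1G410500, whose apical excess was larger at T3. None of these 4 was called with the replicate block.

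From T1 to T5 the strongest apical genes gave 12.15 for PRUPE_6G015900, 7.92 for PRUPE_4G228900, 8.03 for PRUPE_8G177200, 6.60 for PRUPE_1G227100, 7.53 for PRUPE_4G245800, 5.34 for PRUPE_2G073800 and 3.73 for PRUPE_3G111000. The value of PRUPE_6G015900 is a fitted one with T5 apical libraries at 3 counts or fewer, and is no bound.

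The strongest basal genes gave -3.33 for PRUPE_8G112400, -3.59 for PRUPE_4G035600, -3.53 for PRUPE_4G191700, -3.90 for PRUPE_2G260100, -2.99 for PRUPE_5G173700, -3.60 for PRUPE_7G239200, -2.75 for PRUPE_8G018700, -2.79 for PRUPE_2G198100, -2.34 for PRUPE_1G236800, -2.10 for PRUPE_5G129000 and -2.93 for PRUPE_4G035300. The high-level basal gene PRUPE_6G280800 gave -1.95. Of the 11 strongest basal genes, 6 were called in every fit with 1 library left out, and PRUPE_2G198100 in 4 of 18. The replicate block kept 7 of the 11, and PRUPE_3G229400 (adjusted p = 0.00853) and the apical gene PRUPE_3G234900 (adjusted p = 0.00917) were called with it as well. PRUPE_6G280800 was called in 10 of 18 and not with the replicate block.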

How the results depend on the processing

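The T1 count of 970 was 4526 at an FDR of 0.05 without a fold limit, 118 in a test against 2-fold and 587 to 1096 with single libraries left out. The 1808 genes called at T3 became 9220, 192 and, with the 6 libraries of that time alone, 749. The 587 genes kept at T3 became 3270, 64 and 366 to 594. The 238 genes called at T5 became 373 with DESeq2, 1868, 2, 52 with 6 libraries, 157 with the replicate block and 97 to 489. The 52 genes kept at T5 became 89, 657, 0, 13, 32 with the replicate block and 24 to 114. The 13 genes whose difference changed from T1 to T3 became 139 with DESeq2, 145, 0, 1 with the replicate block and 2 to 36, and the 370 from T1 to T5 became 701, 1708, 36, 239 with the replicate block and 194 to 643. The 613 T1 calls that moved in apical buds from T3 to T5 became 3481, 60 and 386 to 634, and the block cannot be fitted to that contrast. No called T1 direction of a named gene was reversed. With the replicate block, differences near 0 that were not called changed sign for PRUPE_4G191700 at T3 (0.03 to -0.10) and for PRUPE_2G260100 (0.30 to -0.07) and PRUPE_1G475800 (-0.03 to 0.00) at T5. Of 45 values of named genes at T1, 7 fell below the limits in the test against 2-fold. The replicate block changed no T1 call of these. The cause of these shifts was not tested. The counts at T5 and between T1 and T3 were the ones that moved most.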

Other observations

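PRUPE_3G229400 and PRUPE_3G229900, both among the strongest 13 of basal buds, have close identifiers on 1 chromosome. PRUPE_3G229400 had 1694, 3029 and 2279 normalized counts in T1 basal and 157, 207 and 285 in T1 apical buds, and PRUPE_3G229900 had 2539, 4165 and 3549 against 359, 399 and 563. Both were highest in basal replicate 2 and lowest in basal replicate 1. How reads shared by near-identical genes were assigned was not stated. Whether these genes are alike in sequence could not be checked, so their separate values may be uncertain. The pair PRUPE_4G076200 and PRUPE_4G076300 was called higher in apical buds at all 3 time points, with log2 differences of 2.34, 2.76 and 1.70 and of 1.97, 2.34 and 2.03, and was picked out after its values were seen.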
